A study of Mus musculus with 16 samples.

Results

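The glutathione S-transferase genes described here were Gsta1, Gsta2 and Gsta4 of the alpha class, Gstm1, Gstm2 and Gstm5 of the mu class, Gstp1 of the pi class, Gsto1 of the omega class, Gstt1 of the theta class and Mgst1, the microsomal enzyme. They were taken by gene symbol from tables of read counts that listed 55367 genes. All 10 symbols were found, and 9 of them passed the filter on low counts that left 19509 genes for testing. Mgst1 had between 0 and 16 counts per library and was not tested.

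Glutathione S-transferases join the tripeptide glutathione to electrophilic compounds, which makes them more soluble and prepares them for export from the cell. The soluble enzymes work as dimers within a class, and many of their genes lie in clusters that arose by duplication. Several alpha, mu and pi genes are classic targets of Nrf2, the transcription factor encoded by Nfe2l2, which pairs with small Maf proteins on antioxidant response elements when electrophiles modify its inhibitor Keap1.

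RNA-seq was performed in mIMCD3 cells, a line of epithelial cells that derives from collecting ducts of the mouse inner medulla, with 2 libraries in each of 8 groups. Wild-type (WT) cells received the solvent DMSO or 10 μM sulforaphane (SFN), an electrophile from cruciferous plants that activates Nrf2, for 5 h, and were taken under isosmotic conditions or after a further 1 h or 6 h in hyperosmotic medium (600 mOsm). Nrf2-/- cells received SFN for 5 h and were taken under isosmotic conditions or after 1 h in hyperosmotic medium. Nrf2-/- cells with DMSO and Nrf2-/- cells at 6 h were not analysed here, so the effect of SFN could not be measured without Nrf2. The Nrf2-/- line was made with lentiviral Cas9 and a guide RNA followed by drug selection, and whether it was 1 clone is not given in the sources used here. The mIMCD3 background was common to all groups. The labels call the source of the RNA primary cells in one place and mIMCD3 in all others.

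Libraries held 34484296 to 50774875 counts. The biological coefficient of variation between the 2 libraries of a group was 0.348 in Nrf2-/- SFN at 1 h and 0.0393 to 0.128 in the other 7 groups, and all groups shared 1 estimate of the spread per gene, so this wide pair entered the error of every comparison. Both libraries of a group are biological replicates according to the study's methods, and the labels do not say how they were kept apart. Of 15 markers of renal epithelium and collecting duct, 11 had a median above 1 CPM, the count scaled to the size of the library, in the WT libraries, among them Krt8, Krt18, Pax8 and Hoxb7. The water channels of principal cells were almost absent, with at most 11 counts of Aqp2 and 2 counts of Aqp4 in a WT library.

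Nfe2l2 was checked first. It had 2496 to 5013 counts in the 12 WT libraries, against 391 and 433 counts in the isosmotic and 389 and 386 counts in the 1 h Nrf2-/- libraries. All 4 Nrf2-/- libraries lay below every WT library. In WT cells Nfe2l2 stood at 76.3 ± 2.21 CPM (SD, n = 2) with DMSO and 72.5 ± 7.83 CPM with SFN under isosmotic conditions, and at 142 ± 3.96 and 147 ± 3.41 CPM after 6 h of stress.

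The alpha genes lie together on chromosome 9 of GRCm38 (the assembly also called mm10), with Gsta4 at 78182774 to 78209349, Gsta1 at 78230656 to 78242684 on the plus strand and Gsta2 at 78331018 to 78355788 on the minus strand. The mu genes lie together on chromosome 3, with Gstm5 at 107895821 to 107898686, Gstm2 at 107981702 to 107986453 and Gstm1 at 108012255 to 108017973. Gstp1 and Gsto1 are both on chromosome 19, at 4035407 to 4037985 and at 47854970 to 47864790, far from each other. Gstt1 is on chromosome 10 at 75783813 to 75798584 and Mgst1 on chromosome 6 at 138140316 to 138156755. All 10 are annotated as protein-coding genes, and the counts are sums over their exons.

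Duplication left stretches that reads cannot assign to a single gene. Of the 100-base words in the annotated transcripts of Gsta1, 80.6% also occurred in transcripts of another gene, 64.7% in Gm3776, 24.3% in Gsta2 and 12.6% in Gm10639. For Gsta2 the shared part was 28.4%, for Gstp1 25.1% (Gstp2 and the pseudogene Gstp-ps) and for Gstm1 5.86%. It was 0 for Gsta4, Gsto1, Gstt1 and Mgst1. Gstm5 shared 5.58% with the antisense transcript 4933431E20Rik, which overlaps 178 of its exonic bases, and whether strand was used in counting is not given in the sources used here. The values of Gsta1, Gsta2, Gstp1 and, to a lesser degree, Gstm1 and Gstm5 are therefore uncertain in how they were divided among copies.

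The bases before the transcription start are shown for 5 of the genes because these stood at different ends of the results below. Gsta1 and Gsta2 were absent from Nrf2-/- cells, Gstp1 and Gstm5 were lowered there, and Gsto1 was not called different. The sequences are the 250 bases upstream of the RefSeq start on GRCm38.p6, written 5′ to 3′ in the direction of the gene, and capitals mark matches to TGANNNNGC, a relaxed core of the antioxidant response element, on either strand. Gsta1 is at chr9:78230419-78230668 on the plus strand, Gsta2 at chr9:78347146-78347395 on the minus strand, Gstp1 at chr19:4037913-4038162 on the minus strand, Gstm5 at chr3:107895604-107895853 on the plus strand and Gsto1 at chr19:47854723-47854972 on the plus strand.
Gsta1: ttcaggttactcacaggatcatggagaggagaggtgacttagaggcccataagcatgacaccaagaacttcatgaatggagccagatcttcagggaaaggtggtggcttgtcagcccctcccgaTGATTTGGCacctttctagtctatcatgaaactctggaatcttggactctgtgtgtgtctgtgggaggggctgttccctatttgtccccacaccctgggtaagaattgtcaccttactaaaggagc
Gsta2: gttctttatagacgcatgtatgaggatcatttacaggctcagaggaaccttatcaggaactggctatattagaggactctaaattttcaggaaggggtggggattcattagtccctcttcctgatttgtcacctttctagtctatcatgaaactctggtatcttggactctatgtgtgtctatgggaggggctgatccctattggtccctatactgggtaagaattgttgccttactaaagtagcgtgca
Gstp1: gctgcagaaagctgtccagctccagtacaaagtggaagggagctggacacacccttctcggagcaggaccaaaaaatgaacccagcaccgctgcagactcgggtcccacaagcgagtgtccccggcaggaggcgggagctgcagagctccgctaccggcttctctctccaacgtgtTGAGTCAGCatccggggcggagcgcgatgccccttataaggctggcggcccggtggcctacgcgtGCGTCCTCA
Gstm5: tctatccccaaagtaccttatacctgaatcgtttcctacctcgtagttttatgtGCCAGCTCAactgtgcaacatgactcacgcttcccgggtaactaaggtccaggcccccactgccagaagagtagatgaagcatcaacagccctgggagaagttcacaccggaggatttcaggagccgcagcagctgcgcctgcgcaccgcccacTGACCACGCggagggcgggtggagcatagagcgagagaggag
Gsto1: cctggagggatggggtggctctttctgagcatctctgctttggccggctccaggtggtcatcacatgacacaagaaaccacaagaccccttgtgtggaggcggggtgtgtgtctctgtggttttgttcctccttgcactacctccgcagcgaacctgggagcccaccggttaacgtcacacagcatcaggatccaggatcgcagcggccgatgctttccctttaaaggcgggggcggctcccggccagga

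Promoter windows of 300 bases (250 before and 50 after the start) were found for 9 of the 10 genes. Gsta4 had no window, so its promoter was not searched. The upstream bases of Gsta1 and Gsta2 were identical in 184 of 261 aligned columns (70.5%), the highest identity between different genes of the family. The relaxed letters TGANNNNGC, searched on both strands, occurred in 41.3% of 32851 such windows, and among these genes in Gsta1, Gstm5, Gstp1, Gstt1 and Mgst1. The stricter letters TGACNNNGC occurred in 12.4% of windows and here in Gstm5, 42 bases before the start, and in Mgst1. In Gstp1 the match TGAGTCAGC, 74 bases before the start, overlaps the AP-1 letters TGAGTCA. The AP-1 letters TGANTCA were also found in Gstm5, 176 bases before the start, and were present in 7.81% of windows. TGGAAA, the core of the osmotic response element bound by NFAT5, occurred in 21.4% of windows and in this family in Mgst1. These matches are letters in a window and were not tied to binding.

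The genes of the family were expressed at very different levels. Divided by the length of all exons of a gene, the mean level in WT DMSO isosmotic cells was 158 CPM per kb for Gstp1, 103 for Gsto1, 55.6 for Gstm1, 31.0 for Gsta4, 20.3 for Gstm5, 12.8 for Gsta1, 7.49 for Gstm2, 1.83 for Gsta2 and 0.402 for Gstt1. Mgst1 came last at 0.0228 CPM per kb. No neighbours in this order overlapped between their 2 libraries, and the order was the same when lengths of the longest transcript were used. Counts shared with copies enter these levels, most of all for Gsta1 and Gsta2.

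Gstp1 is the abundant cytosolic transferase of many epithelia, and it led the family in every WT group. With SFN the order changed in the middle, where Gsta1 at 26.9 CPM per kb stood above Gstm5 at 18.5 CPM per kb under isosmotic conditions, the reverse of DMSO. Gstm1 at 63.6 and Gsta4 at 55.9 CPM per kb overlapped between their libraries in this group. After 1 h with SFN Gstm1 was above Gsta4 on the all-exon scale, at 65.9 against 59.9 CPM per kb, but below it on the longest-transcript scale, at 75.3 against 77.6 CPM per kb, so the order of this pair depends on the length used. In Nrf2-/- SFN isosmotic cells Gsto1 came first at 79.1 CPM per kb, before Gstp1 at 56.9, Gstm5 at 8.33 and Gstm2 at 1.40.

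**Figure D1:**
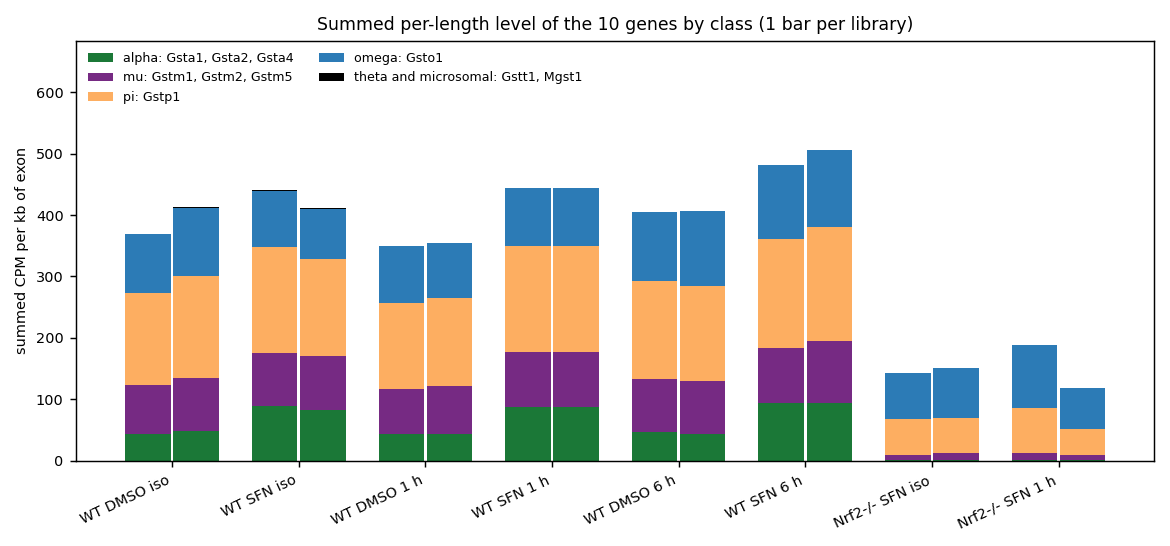
Stacked bars give, for each of the 16 libraries, the summed level of the 10 genes in CPM per kb of exon (y axis, from 0), coloured by enzyme class, with groups on the x axis. The WT bars reach 353 to 494 in the group means and the Nrf2-/- bars 147 and 153, and the alpha layer is thicker in every SFN than in every DMSO library of WT cells and too thin to see in Nrf2-/- cells, as are theta and microsomal genes in all bars.

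The make-up of the family by class moved with SFN and with genotype. Alpha genes made 11.7% ± 0.203 (SD, n = 2) of the summed per-length level in WT DMSO isosmotic cells and 20.1% ± 0.188 with SFN. The share went from 12.2% ± 0.0849 to 19.6% ± 0.117 at 1 h and from 11.2% ± 0.642 to 19.0% ± 0.574 at 6 h. In Nrf2-/- SFN cells it was 0.445% ± 0.162 under isosmotic conditions and 0.291% ± 0.0248 at 1 h. The libraries with DMSO, with SFN and without Nrf2 formed 3 ranges that did not overlap. The mu share was 19.3% to 21.4% in the WT group means and 7.05% and 7.09% in Nrf2-/- cells, while the omega share, which is Gsto1 alone, was 20.3% to 29.0% in WT and 53.7% and 55.1% in Nrf2-/- cells. With only 2 libraries against 2, an exact permutation test on a single value cannot go below 0.333, so these shares are given without a test. In bulk RNA, fewer expressing cells and less RNA per cell cannot be told apart.

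Whether SFN raised the transferases was asked in WT cells in each osmotic state. Gsta1 and Gsta4 were higher with SFN under isosmotic conditions, at 1 h and at 6 h, by 1.80- to 2.11-fold, and no member was called lower. Thus 2 of the 9 genes tested passed edgeR's quasi-likelihood test with a Benjamini-Hochberg adjusted p under 0.05 in each state. Across all genes tested, 1.09% were called higher under isosmotic conditions (2.84% in either direction), 0.0923% at 1 h and 0.041% at 6 h.

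Gsta1 encodes an alpha enzyme with peroxidase activity toward lipid hydroperoxides. In counts it had 518 and 546 in WT DMSO and 895 and 1482 in WT SFN isosmotic cells, which is 12.3 and 12.1 against 24.0 and 27.5 CPM. At 1 h it stood at 11.9 and 13.0 CPM with DMSO and 24.5 and 22.5 CPM with SFN, and at 6 h at 12.5 and 12.9 against 24.8 and 23.6 CPM. Both SFN libraries lay above both DMSO libraries in every state, and the DMSO levels of the 3 states lay within 11.9 to 13.0 CPM. The log2 fold change was 1.08 ± 0.13 (SE) under isosmotic conditions (edgeR adjusted p = 0.000638), 0.91 ± 0.13 at 1 h (edgeR adjusted p = 0.0229) and 0.93 ± 0.14 at 6 h (edgeR adjusted p = 0.0430).

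Gsta4, which prefers 4-hydroxynonenal and other products of lipid peroxidation, shares no 100-base word with another gene. Its levels were 36.3 and 42.2 CPM with DMSO and 77.4 and 64.2 CPM with SFN under isosmotic conditions. They were 37.5 and 36.0 against 74.5 and 77.2 CPM at 1 h, and 41.8 and 37.1 against 81.6 and 84.1 CPM at 6 h. The groups did not overlap in any state. The log2 fold change was 0.85 ± 0.15 (SE; edgeR adjusted p = 0.00539), 1.05 ± 0.15 (edgeR adjusted p = 0.0104) and 1.07 ± 0.15 (edgeR adjusted p = 0.0270).

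Gsta2, the close copy of Gsta1, was the lowest of the 3 alpha members. It stood at 2.33 and 1.97 CPM with DMSO and 3.14 and 2.89 CPM with SFN under isosmotic conditions. At 1 h the values were 1.22 and 1.43 against 3.05 and 3.85 CPM, and at 6 h 1.36 and 1.20 against 3.76 and 3.64 CPM. SFN libraries were above DMSO libraries in all 3 states, but the log2 fold changes of 0.49 ± 0.27, 1.38 ± 0.28 and 1.53 ± 0.28 (SE) were not called (edgeR adjusted p = 0.422, 0.192 and 0.233). They were called at 1 h and 6 h when only the compared libraries were fitted (edgeR adjusted p = 0.00108 and 0.00856), when the 12 WT libraries alone were fitted (edgeR adjusted p = 0.0132 and 0.0170) and by DESeq2 (adjusted p = 0.00300 and 0.00145). Of 7 alternative settings 4 called Gsta2 in each of these states, and the others did not (highest edgeR adjusted p = 0.385 and 0.479). Leaving out single libraries gave log2 fold changes of 1.20 to 1.54 at 1 h and 1.44 to 1.62 at 6 h.

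**Figure D2:**
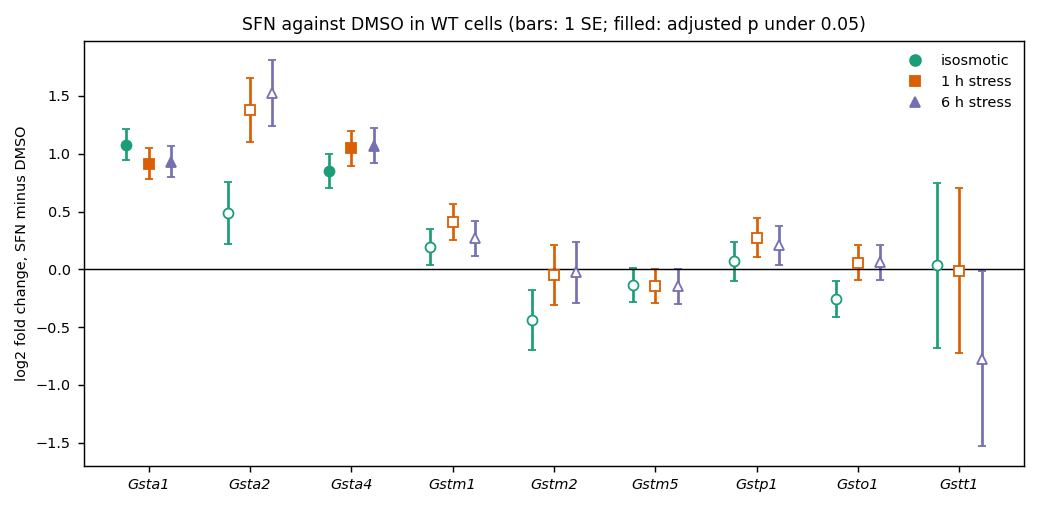
Points give the log2 fold change of SFN against DMSO in WT cells (y axis) for the 9 genes tested (x axis), with bars of 1 SE, for isosmotic cells (circles), 1 h (squares) and 6 h (triangles); filled symbols have an edgeR adjusted p under 0.05. Gsta1 and Gsta4 are filled in all 3 states near 1, Gsta2 is at 0.49, 1.38 and 1.53 with open symbols, and the mu, pi, omega and theta genes lie between -0.78 and 0.41.

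The mu, pi, omega and theta genes were not called with SFN in any state. Gstm1, the main mu enzyme here, gave 3317 and 3836 counts in DMSO libraries against 3357 and 5246 in SFN libraries under isosmotic conditions, or 79.0 and 84.8 against 90.0 and 97.2 CPM. At 1 h it stood at 70.7 and 75.5 against 98.3 and 95.8 CPM, with a log2 fold change of 0.41 ± 0.15 (SE; edgeR adjusted p = 1). Gstp1 stood at 218 and 223 against 268 and 267 CPM at 1 h, with a log2 fold change of 0.27 ± 0.17 (SE; edgeR adjusted p = 1). For both genes at 1 h the SFN libraries were above the DMSO libraries by more than the spread within each pair. With the 4 compared libraries alone both were called (edgeR adjusted p = 4.74e-07 and 4.84e-07), and without the Nrf2-/- SFN 1 h libraries Gstm1 was called (0.0356) and Gstp1 was not (0.0986).

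Gstm5, Gstm2 and Gsto1 were not called in either direction. Gstm5 was at 24.3 and 27.6 CPM with DMSO and 24.9 and 22.4 CPM with SFN under isosmotic conditions, and its log2 fold change was -0.14, -0.14 and -0.15 in the 3 states. Gstm2 was at 12.1 and 13.1 against 9.57 and 8.97 CPM under isosmotic conditions, with a log2 fold change of -0.44 ± 0.26 (SE; edgeR adjusted p = 0.448). Gsto1, a glutaredoxin-like enzyme that reduces dehydroascorbate, was at 194 and 225 against 185 and 165 CPM, with -0.26 ± 0.15 (edgeR adjusted p = 0.446). In these 2 genes the SFN libraries were below the DMSO libraries under isosmotic conditions, and both were called lower in the fit to the 12 WT libraries alone (edgeR adjusted p = 0.0467 and 0.0366). At 1 h Gsto1 was at 187 and 181 CPM with DMSO and 191 and 193 CPM with SFN, so that the SFN libraries were slightly above, and its log2 fold change was 0.06 at both 1 h and 6 h. Gstm2 overlapped between DMSO and SFN at 1 h and 6 h, with log2 fold changes of -0.05 and -0.03. Gstt1, with 4 to 38 counts in a WT library, overlapped between DMSO and SFN in all 3 states.

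Genes whose SFN and DMSO libraries did not overlap, higher or lower, numbered 7 of 10 under isosmotic conditions, 8 at 1 h and 6 at 6 h. This includes the untested Mgst1 under isosmotic conditions (2 and 2 counts with DMSO, 4 and 4 with SFN). It also includes Mgst1 at 1 h (0 and 0 against 4 and 6). Of the genes tested, which leave Mgst1 out, 48.3%, 43.1% and 41% had groups that did not overlap. The difference of the SFN effect between states was also tested. None of the 9 genes was called at 1 h minus isosmotic or at 6 h minus isosmotic by edgeR's quasi-likelihood test (0.559% and 0.759% of all genes were), and DESeq2 called 0 as well. Gsta2 alone had an unadjusted p under 0.05, with differences of 0.89 ± 0.39 and 1.04 ± 0.39 in log2 fold change (SE, edgeR adjusted p = 0.620 and 0.422). Among all 19509 genes, 1487 and 1721 had an unadjusted p under 0.05 for these differences.

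The calls at 1 h and 6 h stood near the threshold while their sizes were steady. When each of the 16 libraries was left out in turn, the log2 fold change of Gsta1 at 1 h stayed within 0.85 to 0.98 and that of Gsta4 within 1.02 to 1.08. The call of Gsta4 was lost without any 1 of the 4 compared libraries (highest edgeR adjusted p = 0.287). That of Gsta1 was lost without any of these 4 and also without either WT DMSO isosmotic, WT DMSO 6 h or WT SFN 6 h library (highest edgeR adjusted p = 0.665). Under isosmotic conditions Gsta4 lost its call without WT DMSO replicate 1 (edgeR adjusted p = 0.0764) or WT SFN replicate 1 (0.0758). Without both Nrf2-/- SFN 1 h libraries 4 of the 9 members were called at 1 h. The share of all genes called in that fit is not given here. At 6 h Gsta1 was not called with RLE size factors (edgeR adjusted p = 0.0514), and among the omissions it kept its call only without 1 of these 2 libraries, with log2 fold changes of 0.90 to 0.97 and a highest edgeR adjusted p of 0.827. Gsta4 at 6 h lost it without any WT library other than the 2 of WT SFN isosmotic cells (highest edgeR adjusted p = 0.753), and the Nrf2-/- libraries did not decide it.

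Copies that share reads were added up to see whether their pool rose with SFN. The sum cannot tell which copy the shared reads came from. With Gsta1, Gsta2, Gm3776 and Gm10639 counted as 1 gene, the log2 fold change with SFN was 0.91 ± 0.12, 0.96 ± 0.12 and 1.01 ± 0.12 (SE) in the 3 states (edgeR adjusted p = 0.00119, 0.00661 and 0.0160). Gm3776 had 129 to 355 counts and Gm10639 35 to 122 counts in WT libraries. Gsta1 alone, as given above, stood at 1.08, 0.91 and 0.93 in the same states, and the pooled copies were called in each of them.

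Hyperosmotic stress was compared with isosmotic conditions in WT DMSO cells. The labels name no isosmotic groups matched in time to 1 h and 6 h, so stress and elapsed time cannot be told apart. This holds for every comparison between osmotic states here. After 1 h none of the 9 genes was called by edgeR's quasi-likelihood test, against 11.2% of all genes tested. An unadjusted p under 0.05 was found for 1 of them, beside 4611 of all 19509 genes. DESeq2 also called none. Gsta1 was at 12.5 ± 0.817 CPM (SD, n = 2) after 1 h and 12.2 ± 0.191 CPM before, and the log2 fold changes of the members lay between -0.70 and 0.07, with a median of -0.14 against 0.0016 over all genes.

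After 6 h, when 45.9% of all genes tested were called and 22% were called lower, 1 member was called. Gsta2 fell by 0.74 ± 0.29 on the log2 scale (SE; edgeR adjusted p = 0.0493), from 98 and 89 counts to 47 and 39. Both stressed libraries lay below both isosmotic libraries, and the values at 1 h (54 and 54 counts) were also below. The call was lost with DESeq2 (adjusted p = 0.0797), with RLE size factors (0.0798), without the filter on low counts (0.156), with only the compared libraries (0.0859), and without any 1 WT library. Gsto1 stood at 228 and 249 CPM after 6 h and 194 and 225 CPM before, with a log2 fold change of 0.19 ± 0.15 (edgeR adjusted p = 0.341), and was called higher with only the compared libraries (0.0345), with the 12 WT libraries (0.0206) and without Nrf2-/- SFN 1 h replicate 2 (0.0460). The remaining 7 genes had log2 fold changes between -0.13 and 0.15, and the median of all 9 was 0.0085 against 0.048 over all genes.

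Nrf2-/- cells were compared with WT cells under SFN, in which the WT SFN libraries are the same ones that entered the SFN comparisons above. Gsta1, Gsta2, Gsta4, Gstm1, Gstm2, Gstm5, Gstp1 and Gstt1 were lower without Nrf2 under isosmotic conditions and at 1 h, and Gsto1 was not called. That was 8 of the 9 genes tested in each state, where 18.4% and 16.2% of all genes were called lower and 34.1% and 31.5% were called in either direction. The Nrf2-/- and WT libraries of these 8 genes did not overlap in either state, which held for 66.2% and 59% of all genes tested. The size ran from the absence of any count of Gsta1 and Gsta2 to levels of Gstm5 that were 2.22-fold lower under isosmotic conditions and 1.98-fold lower at 1 h.

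**Figure D3:**
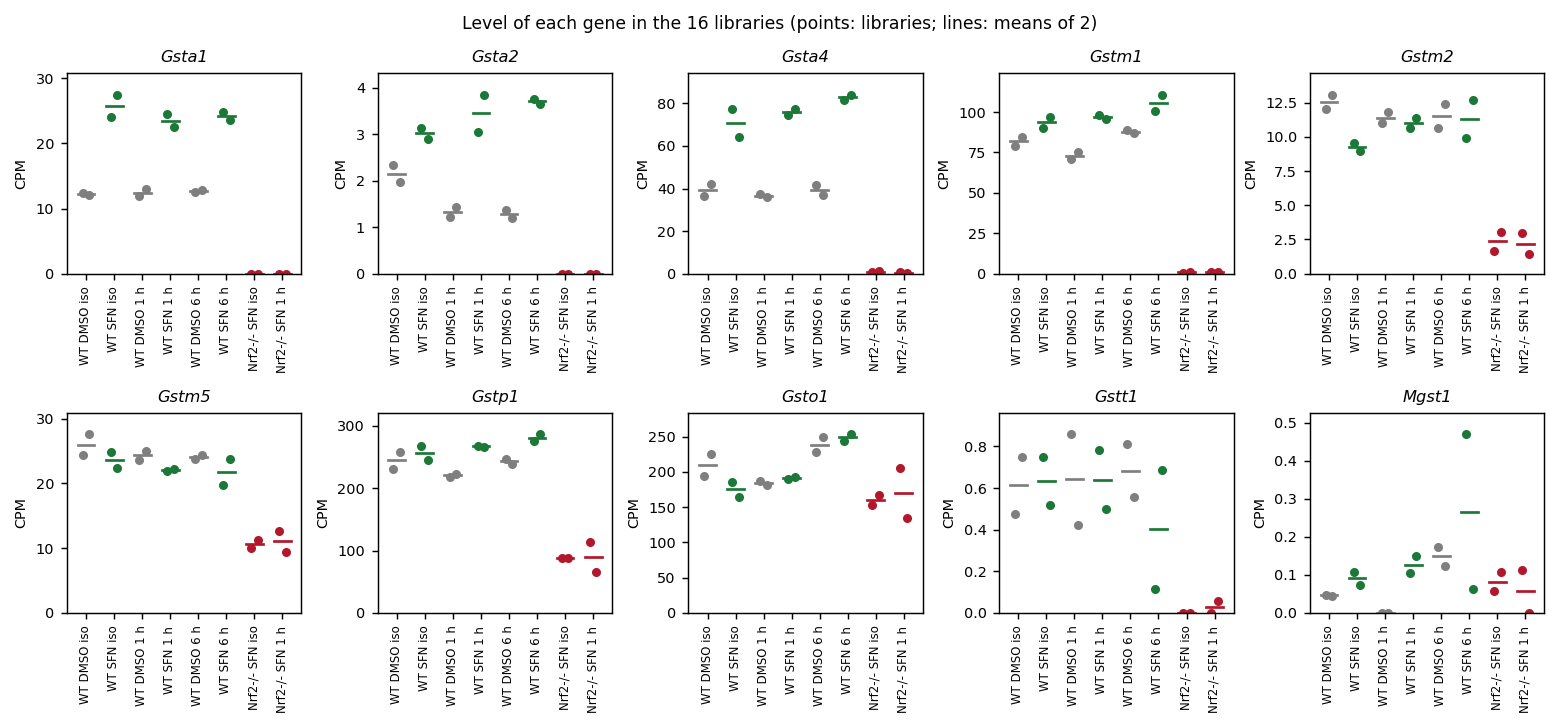
Each panel plots 1 gene, with its level in CPM on a y axis from 0 and the 8 groups on the x axis; points are libraries and lines the means of 2, grey for WT DMSO, green for WT SFN and red for Nrf2-/- SFN. Red points lie at or near 0 for Gsta1, Gsta2, Gsta4, Gstm1 and Gstt1, between 65.7 and 113 CPM for Gstp1, and overlap the range of the WT points for Gsto1 and the rare Mgst1.

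Gsta1 and Gsta2 had no counts left without Nrf2. Gsta1 had 895 and 1482 counts in WT SFN isosmotic libraries and 0 and 0 in Nrf2-/- libraries, and 938 and 899 against 0 and 0 at 1 h. Set against a floor of 3 counts over the group, it was at least 628-fold lower under isosmotic conditions and at least 547-fold lower at 1 h (edgeR adjusted p = 4.50e-11 and 6.20e-11). Gsta2 went from 117 and 156 counts to 0 and 0, and from 117 and 154 to 0 and 0, at least 72.2-fold and at least 80.7-fold lower (edgeR adjusted p = 1.68e-07 and 1.56e-07).

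Both genes also had 0 counts in all 4 Nrf2-/- libraries where the WT DMSO libraries held 417 to 546 counts of Gsta1 and 39 to 98 of Gsta2. The Nrf2-/- level was below that of WT cells that had not received SFN. The copies Gm3776 and Gm10639 had 0 counts in all 4 as well.

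Gsta4 had 2887 and 3464 counts in WT SFN and 21 and 40 in Nrf2-/- isosmotic libraries, and 2855 and 3089 against 23 and 16 at 1 h. Its log2 fold change was -6.39 ± 0.21 and -7.08 ± 0.22 (SE; edgeR adjusted p = 1.83e-11 and 1.26e-11). Unlike Gsta1 and Gsta2, it kept counts above 0 in every Nrf2-/- library.

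Among the mu genes, Gstm1 went with the alpha genes and the others less so. Gstm1 had 3357 and 5246 counts against 23 and 48 under isosmotic conditions and 3770 and 3833 against 46 and 29 at 1 h, with log2 fold changes of -6.58 ± 0.21 and -6.50 ± 0.21 (SE; edgeR adjusted p = 1.83e-11 and 2.18e-11). Gstm2 had 357 and 484 against 58 and 114 counts, and 408 and 455 against 104 and 50, with -1.97 ± 0.29 and -2.32 ± 0.29 (edgeR adjusted p = 8.82e-05 and 2.36e-05). Gstm5 had 927 and 1208 against 350 and 422 counts, and 839 and 886 against 449 and 328, with -1.15 ± 0.15 and -0.99 ± 0.15 (edgeR adjusted p = 3.54e-05 and 0.000166).

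No Nrf2-/- library reached the lowest WT library in any of these 3 genes. Without Nrf2-/- SFN 1 h replicate 1 the log2 fold change of Gstm2 at 1 h was -2.91. With only the 4 compared libraries Gstm5 at 1 h was not called (edgeR adjusted p = 0.0577). The fold of Gstm1 was the largest of the mu genes in both states, and the differences between genes were not tested.

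Gstp1 had 9975 and 13202 counts in WT SFN and 3125 and 3252 in Nrf2-/- isosmotic libraries, and 10257 and 10670 against 3997 and 2277 at 1 h. The log2 fold change was -1.54 ± 0.17 and -1.58 ± 0.17 (SE; edgeR adjusted p = 7.49e-06 and 6.74e-06), or 2.91-fold and 2.99-fold lower, and Gstp1 together with Gstp2 and Gstp-ps gave -1.53 and -1.58. Nrf2-/- cells thus still held 88.1 ± 1.08 CPM (SD, n = 2) of Gstp1 under isosmotic conditions.

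Gsto1 had 6910 and 8902 counts against 5375 and 6220 under isosmotic conditions, or 185 and 165 against 153 and 167 CPM, and the groups overlapped. At 1 h it stood at 191 and 193 against 205 and 134 CPM. The log2 fold change was -0.13 ± 0.15 (SE; edgeR adjusted p = 0.560) and -0.18 ± 0.15 (edgeR adjusted p = 0.424). At 1 h the value rests on the wide pair, since it was -0.50 and called without Nrf2-/- replicate 1 (edgeR adjusted p = 0.000175) and 0.10 without replicate 2.

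Gstt1, which acts on small halogenated compounds, had 28 and 28 counts in WT SFN and 0 and 0 in Nrf2-/- isosmotic libraries, at least 14.8-fold lower (edgeR adjusted p = 0.00167). At 1 h it had 30 and 20 against 0 and 2 counts, a ratio of 22.3 with a 95% counting interval of 5.87 to 189, and it was not called with only the compared libraries (edgeR adjusted p = 0.0658). Mgst1 had 4 and 4 counts in WT SFN and 2 and 4 in Nrf2-/- isosmotic libraries, which is too few to compare.

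**Figure D4:**
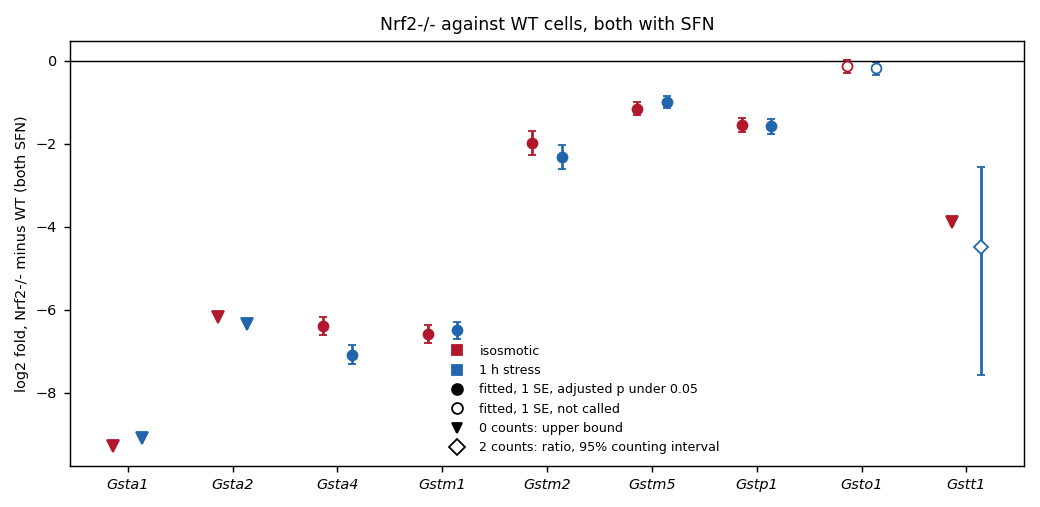
Points give the log2 fold of Nrf2-/- against WT cells, both with SFN (y axis), for the 9 genes tested (x axis), in red for isosmotic cells and blue for 1 h. Circles are fitted values with 1 SE, filled where the edgeR adjusted p is under 0.05; triangles are upper bounds for genes with 0 counts and the diamond is a ratio of counts with its 95% counting interval, and the order runs from upper bounds of -9.30 and -9.10 for Gsta1 to -0.13 and -0.18 for Gsto1.

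The median fitted log2 fold of the 9 genes was -6.39 under isosmotic conditions and -4.34 at 1 h, against -0.00091 and -0.022 over all genes. With genes at 0 set to their bound it was -3.89 and -4.34. Both of these are the values of Gstt1, with 56 and 50 counts in WT SFN and 0 and 2 in Nrf2-/- cells. The medians of the 2 states are therefore not compared. Other genes than the transferases also separated the Nrf2-/- line from WT cells. The kidney-specific cadherin Cdh16 had 488 to 900 counts in Nrf2-/- and 6570 to 14870 in WT libraries, the duct transcription factor Pax2 819 to 977 against 4993 to 39220, and Gata3 5 to 31 against 87 to 301. Pax8 was also lower, at 1743 to 2299 against 3403 to 24663 counts. Epcam was higher at 6595 to 13157 against 1875 to 4529 counts, as were the cadherin Cdh1 at 14955 to 16316 against 5155 to 14482 and Tfcp2l1 at 1709 to 2818 against 820 to 1464. Among markers of other cells, the fibroblast collagens moved apart, with Col3a1 at 44 to 85 against 0 to 6 counts and Col1a1 at 23 to 60 against 78 to 267, and the proximal tubule receptor Lrp2 stood at 2 to 16 against 239 to 451. Over all 15 epithelial markers the sum was 2113 to 2621 CPM in Nrf2-/- and 1988 to 4485 CPM in WT libraries, with Aqp4 at 0 counts in all Nrf2-/- libraries, and 9 of the 15 had a median above 1 CPM. Proximal tubule markers summed to 7.84 to 11.4 CPM against 10.1 to 40.6 CPM, loop of Henle markers to at most 0.115 against 0.185 CPM, endothelial markers to at most 0.878 against 5.36 CPM, immune markers to at most 7.39 against 10.7 CPM and fibroblast markers to at most 3.95 against 7.60 CPM. Their part in the transferase result was not tested, and loss of Nrf2 and other properties of this line cannot be told apart.

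Stress for 1 h was also compared with isosmotic conditions within Nrf2-/- SFN cells. No transferase was called by edgeR's quasi-likelihood test (7.17% of all genes were), and DESeq2 called none. None had an unadjusted p under 0.05, where 3987 of all 19509 genes did. Gsta1 and Gsta2 were at 0 in all 4 libraries. Gstp1 stood at 88.9 and 87.4 CPM before and 113 and 65.7 CPM after 1 h, so that the stressed pair spanned the isosmotic pair, and the same held for Gsto1 at 153 and 167 before and 205 and 134 CPM after. Without replicate 1 of the stressed pair Gstp1 was called lower (-0.43, edgeR adjusted p = 0.00116), and without replicate 2 Gstp1 and Gsto1 were called higher (0.36 each, 0.00374 and 0.00843). The difference of this stress effect between Nrf2-/- and WT cells with SFN was called for none of the 9 genes (0.123% of all genes were), and DESeq2 called none. None had an unadjusted p under 0.05, where 1433 of all 19509 genes did. Without replicate 1 of the stressed Nrf2-/- pair, however, the difference for Gstp1 was -0.49.

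Likeness across libraries was described by the correlation of log2 CPM with the other members and the genes of the lists below. Over all 16 libraries the closest partner was Gsta4 for Gsta1 (r = 0.995) and Gsta2 (0.992), Gsta1 for Gstm1 (0.994), Gstm5 for Gstm2 (0.981), Gsta4 for Gstp1 (0.979), Abcc3 for Gstt1 (0.936) and Acy3 for Gsto1 (0.873). These values are set mostly by the gap between genotypes. Over the 12 WT libraries the closest was Pgd, of the pentose phosphate pathway, for Gsta1 (0.964), Gsta2 (0.918) and Gsta4 (0.969), Gstp1 for Gstm1 (0.905) and Ephx1, the microsomal epoxide hydrolase, for Gstp1 (0.950). For the other members it was Gstp3 for Gsto1 (0.884), Mgst3 for Gstm2 (0.845), Cndp2 for Gstm5 (0.638) and Gstm5 for Gstt1 (0.602). The points share libraries and depth, and no test was made.

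The other transferases and the related membrane proteins of eicosanoid and glutathione metabolism were described in the same way. Of 23 listed, 21 were in the tables and 18 were tested. With SFN none was called by edgeR's quasi-likelihood test in any of the 3 states. Of the 18, 5, 1 and 2 had an unadjusted p under 0.05, beside 3010, 669 and 718 of all 19509 genes. Gsta3, another alpha gene, went from 21 and 21 to 67 and 79 counts under isosmotic conditions (edgeR adjusted p = 0.0885). After 6 h of stress in WT DMSO cells 4 were called higher and 4 lower, near the share of 45.9% called among all genes. Gsto2 rose by 2.39 ± 0.30 on the log2 scale (SE; edgeR adjusted p = 1.70e-05), from 27 and 54 to 153 and 171 counts, and Gstm4 went from 0 and 0 to 39 and 30 counts (edgeR adjusted p = 7.59e-05). Gstp3 went from 0 and 4 to 30 and 25 counts (0.0114), Hpgds from 16 and 2 to 34 and 19 (0.0361), and Gstt3 fell by 1.42 ± 0.27 on the log2 scale (0.000603). At 1 h Gstm4 (23 and 40 counts) and Hpgds (45 and 48 counts) were called higher. These were 2 of the 18, near the share of 11.2% called among all genes.

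Without Nrf2, 6 of these 18 genes were lower and 3 higher under isosmotic conditions, and 5 lower and 3 higher at 1 h, where 34.1% and 31.5% of all genes were called. Mgst2 had 58 and 91 counts in WT SFN and 0 and 0 in Nrf2-/- isosmotic libraries (edgeR adjusted p = 7.84e-06), Gsta3 67 and 79 against 0 and 2 (3.91e-05), and Gstm3 6 and 4 against 0 and 0 (0.0305). Gstp2 fell by 2.20 ± 0.37 on the log2 scale (0.000304). Hpgds, which makes prostaglandin D2, was higher without Nrf2 at 9 and 26 against 2 and 4 counts (0.0154), and Mgst3 and Gstz1 were called higher in both states. Mgst3 overlapped between the groups at 1 h, with 34.9 and 17.0 CPM in Nrf2-/- against 14.2 and 17.1 CPM in WT SFN libraries. At 1 h the same comparison called Gsta3, Gstm3, Gstt3, Mgst2 and Ptges2 lower and Gstz1, Mgst3 and Ltc4s higher. Within Nrf2-/- SFN cells 1 h of stress raised 3 of the 18, where 7.17% of all genes were called, namely Gstm4 (0 and 0 to 11 and 7 counts), Mgst2 (0 and 0 to 5 and 11) and Gsto2 (20 and 26 to 53 and 57).

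Genes that make and recycle glutathione were examined because the transferases depend on it. Of 15 tested with SFN, 4 were higher under isosmotic conditions, 3 at 1 h and 1 at 6 h. Across all genes tested, 1.09%, 0.0923% and 0.041% were called higher in these states. Slc7a11, the cystine carrier, rose by 2.39 ± 0.26, Gclc and Gclm, the subunits of glutamate-cysteine ligase, by 1.24 ± 0.10 and 1.22 ± 0.09, and Chac1, a glutathione-degrading enzyme, by 1.98 ± 0.20 under isosmotic conditions (log2 ± SE; edgeR adjusted p = 0.00012, 5.96e-06, 5.96e-06 and 4.21e-05). For Gclc, Gclm and Chac1 the effect at 6 h was smaller than under isosmotic conditions by the test of the difference (-1.12, -0.63 and -1.82, edgeR adjusted p = 0.000576, 0.0387 and 0.00471). From isosmotic conditions to 6 h, Gclc went from 76.1 to 147 CPM with DMSO and from 180 to 160 CPM with SFN. Gclm went from 177 to 175 and from 411 to 262 CPM, and Chac1 from 6.67 to 7.10 and from 26.3 to 7.94 CPM. The difference for Gsta1 was -0.15 ± 0.19 and for Gsta4 0.22 ± 0.21, and neither was called (edgeR adjusted p = 0.929 and 0.863). Stress alone called 1 of the 15 lower at 1 h and 3 higher and 5 lower at 6 h, where 11.2% and 45.9% of all genes were called. Without Nrf2, 6 were lower and 2 higher under isosmotic conditions, where the log2 fold changes were -1.74 ± 0.10 for Gclc, -1.61 ± 0.10 for Gclm, 0.84 ± 0.25 for Slc7a11 and 2.57 ± 0.22 for Cth (edgeR adjusted p = 4.98e-09, 8.32e-09, 0.0162 and 3.74e-07), and 6 were lower and 3 higher at 1 h, beside 34.1% and 31.5% of all genes called.

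Of the 22 genes for export of conjugates and their conversion to mercapturates, 19 were tested. With SFN 1 was higher, the exporter Abcc4 under isosmotic conditions (0.51 ± 0.13 on the log2 scale, edgeR adjusted p = 0.0494), where 1.09% of all genes were called higher. None was called at 1 h or 6 h by edgeR's quasi-likelihood test (0.0923% and 0.041% of all genes were). In each of these states 2 had an unadjusted p under 0.05, beside 669 and 718 of all 19509 genes. Stress alone called 3 of the 19 higher at 1 h (11.2% of all genes were called) and 7 higher and 4 lower at 6 h (45.9% of all genes), when Abcc4 rose by 0.89 ± 0.13 (edgeR adjusted p = 6.11e-05). Without Nrf2, 6 of the 19 were lower and 2 higher under isosmotic conditions and 5 lower and 1 higher at 1 h, near the 34.1% and 31.5% called among all genes. Abcc3, an exporter of glucuronide and glutathione conjugates, had log2 fold changes of -7.58 ± 0.33 and -6.27 ± 0.29 in these states (SE; edgeR adjusted p = 3.27e-10 and 7.38e-10). Those of the exporter Abcg2 were -1.21 ± 0.11 and -1.29 ± 0.11 (1.13e-06 and 7.77e-07), and those of Ggt7, a relative of gamma-glutamyltransferase, were -1.97 ± 0.29 and -1.75 ± 0.29 (8.27e-05 and 0.000344).

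A list of 22 known Nrf2 targets outside the family was set beside these values. It shares Gclc, Gclm, Slc7a11 and Gsr with the glutathione list and Abcc1 and Abcc4 with the export list. The calls of these genes are therefore counted in more than 1 list. With SFN 10 were higher under isosmotic conditions, 9 at 1 h and 3 at 6 h, where 1.09%, 0.0923% and 0.041% of all genes were called higher. Their median log2 fold changes were 0.45, 0.48 and 0.35, against medians of 0.07, 0.27 and 0.21 for the 9 transferases. Without Nrf2, 18 were lower and 1 higher under isosmotic conditions and 17 lower and 1 higher at 1 h, with medians of -1.18 and -0.95, where 18.4% and 16.2% of all genes were called lower. Hmox1 rose with SFN by 2.03 ± 0.24 and Srxn1 by 1.33 ± 0.09 under isosmotic conditions (edgeR adjusted p = 0.000311 and 1.26e-06), and without Nrf2 the log2 fold changes were -5.51 ± 0.45 for Cbr3 and -3.25 ± 0.09 for Srxn1 (edgeR adjusted p = 2.70e-07 and 7.21e-12). Nqo1, at 7.28 CPM in WT SFN isosmotic cells, was at 0 counts in both Nrf2-/- isosmotic libraries, as Gsta1 and Gsta2 were.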

How the data were processed

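Total RNA of mIMCD3 cells was sequenced in 16 libraries on an Illumina NovaSeq. Per the labels and the study's methods, the authors aligned reads to mm10 (Hisat2 in the methods, Bowtie2, SAMtools and featureCounts in the submitters' processing notes, no versions given) and deposited raw read counts per gene symbol, 1 table per library. Read length, strandedness and the treatment of reads shared between copies are not given in the sources used here. Among counts of 1 to 10, 58.0% to 68.5% were even, so small counts may not be counts of independent fragments, and counting intervals cover counting error only. Blank rows, 2 and 3 in 2 libraries, were left out.

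Counts were scaled with TMM and tested with edgeR 4.0.16 (R 4.3.3, robust quasi-likelihood F-test) in 1 model of 8 groups over 16 libraries, after filterByExpr had left 19509 genes. Benjamini-Hochberg adjusted p-values under 0.05 over all 19509 genes were calls. Levels are CPM, also divided by exon length in GENCODE M21 (GRCm38). A group at 0 was set to a floor of 3 counts over its 2 libraries. DESeq2 1.42.0, RLE size factors, other filters, other sets of libraries, a replicate block and the omission of each library were alternatives. The omission of the Nrf2-/- SFN 1 h group, the summed copies and the relaxed promoter letters were added after seeing the data. The script was tested on simulated counts.

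The 10 genes and the lists were chosen with earlier results of these data known. All 10 genes are named, with Nfe2l2, the gene most like each, and from each list up to 5 (other transferases) or 4 called genes with the largest change per comparison. Further genes named, among them Gsta3 with SFN, Gclm, Slc7a11 and Abcc4, were chosen after their values were seen.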

Additional observations from a re-analysis of the deposited data

How the results depend on the processing

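Of the 2 members called with SFN under isosmotic conditions, 1 was called when at least 10 counts were required in every library, which left 6 members, and 4 with the 12 WT libraries alone. At 1 h the 2 calls became 1 with at least 10 counts, 1 with the replicate block, 5 with only the compared libraries, and 4 with the 12 WT libraries or without the Nrf2-/- SFN 1 h group. At 6 h they became 1 with RLE size factors, 1 with at least 10 counts and 0 with the replicate block. The single call after 6 h of stress became 0 with DESeq2, with RLE size factors, without a filter, with at least 10 counts and with the replicate block, and 2 with the 12 WT libraries. The 8 calls for Nrf2-/- against WT became 5 with at least 10 counts in both states. The share of all genes called under each setting is not given here. Changes in these counts are therefore not read as results about the transferases. Leaving out 1 library in turn gave 1 to 3, 0 to 4 and 0 to 3 calls with SFN under isosmotic conditions, at 1 h and at 6 h, 0 to 2 after 6 h of stress, 8 to 8 and 8 to 9 for Nrf2-/- against WT, 0 to 2 for stress in Nrf2-/- cells, and 0 to 1 for its difference from WT. Gstp1 in stressed Nrf2-/- cells turned from 0.02 to -0.43 (log2) without replicate 1 of that group, and was 0.36 without replicate 2. Of the remaining values of single genes, 2216 kept their side of the threshold, 63 lost a call and 30 gained one. Values that were not called could change sign among the 2216. Gsto1 in Nrf2-/- against WT cells at 1 h, for example, went from -0.18 to 0.10 (log2) without Nrf2-/- replicate 2. Except for effects of construction (fewer genes or samples), the cause was not tested. Replicate numbers were checked as pairs. Over 28 pairs of groups the correlation of deviations was -0.0794 to 0.123 and above 0.1 in 1. No effect shared by replicate number was seen, but low correlations cannot show that the samples were not run as pairs. With the replicate block the log2 fold change of Gsta1 at 1 h had an edgeR adjusted p of 0.0568, and at 6 h those of Gsta1 and Gsta4 were 0.0936 and 0.0637. Depth limits Gstt1, Mgst1 and Gsta2, whose levels rest on few counts.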
